A study of Mus musculus with 24 samples.

Results

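The comparison set the 3 liver arrays of circadian time 6 (CT06) against the 3 arrays of circadian time 0 (CT00), 6 of the 24 arrays of the series, for each of 19935 genes with a single gene symbol. All samples came from livers of adult male C57BL/6 mice, and the labels name no transgene or mutation. The mice had been entrained for 4 weeks to 12 h of light and 12 h of dim red light, and then kept in continuous dim red light, so that no lighting cue separated the groups. Livers were taken every 3 h on the second cycle of that regime, at 8 times with 3 arrays each, and food was always available. CT00 marks the start of the subjective day, when these nocturnal animals come to rest, and CT06 its middle, so the comparison covers the first 6 h of the resting phase. RNA of each liver was processed on its own, so the spread is that between animals, although the labels give 4 mice per time in one place and 3 replicates in another. The series' design text names 4 times while its samples carry 8, and the 8 were used.

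The liver clock is a transcriptional loop. BMAL1 (gene symbol Arntl) and CLOCK bind E-boxes and drive the Period, Cryptochrome, Rev-erb and PAR bZIP genes, whose products then repress the loop or pass its rhythm on. The REV-ERB proteins (Nr1d1, Nr1d2) and the ROR proteins compete for ROR elements, through which Arntl, Clock, Cry1 and Nfil3 are repressed or activated, while the PAR bZIP factors DBP, TEF and HLF and their antagonist NFIL3 compete for D-boxes in genes of metabolism and detoxification.

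Values were the submitters' deposited array values, taken as log2 and centred so that each probe set had a median of 0 over the 24 arrays. They gave differences between samples and no level of one gene against another. The array medians over genes lay between -0.0229 and 0.0188 and no array was left out. Whole liver was sampled, so fewer cells of a type and less RNA per cell cannot be told apart. The 7 measured hepatocyte markers were all among the brighter probe sets, and none of 70 measured markers of 11 cell types was called between CT06 and CT00 by limma (2 had an unadjusted p under 0.05). The mean of 5 bile duct markers was 0.07 to 0.2 at CT00 and -0.0738 to 0.0226 at CT06, and that of 2 red blood cell markers -0.0972 to -0.0414 and 0.00205 to 0.123. The mean of 52 small nucleolar RNA genes was 0.139, 0.115 and 0.0279 at CT00 and 0.0232, -0.0187 and -0.078 at CT06. With that mean as a covariate 69 of the 93 genes called below were still called, and that fit called 56 genes higher and 28 lower in all. The part of the 2 marker lists in the results was not tested.

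Few genes were called across these 6 h, and the 3 largest rises (Nr1d1, Dbp, Nr1d2) and the largest fall (Arntl) were in the clock itself. Called genes are those with a Benjamini-Hochberg adjusted p under 0.05 in limma's moderated test, fitted to all 24 arrays. By this measure 93 of 19935 genes (0.467%) were called, of which 60 (0.301%) were higher and 33 (0.166%) lower at CT06, and 1462 genes (7.33%) had an unadjusted p under 0.05. The median fold change among the called genes was 1.43, from 1.19 to 6.11, and 39 (0.196% of all genes) differed by at least 1.5-fold, 21 of them higher and 18 lower. In all 93 the 3 arrays of one time lay entirely above the 3 of the other, as they did in 15.1% of all genes. Because same-numbered CT00 and CT06 arrays deviated together, the replicate number was also used as a block. It gave 89 higher and 40 lower genes with all arrays, and 141 and 107 with the 6 arrays alone. The labels do not say what the number marks, and the block was chosen from these same values. Calls gained with it, here and below, are therefore an alternative and no support for a gene.

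The number of calls depended on single arrays. Leaving out CT00 replicate 1 left 10 genes higher and 11 lower, leaving out CT00 replicate 2 left 20 and 18, and leaving out CT06 replicate 3 left 19 and 15. Without CT06 replicate 2 the counts were 25 and 23, without CT00 replicate 3 they were 53 and 30, and without CT06 replicate 1 they were 58 and 29. The 21 genes called in all 6 of these fits were Nr1d1, Dbp, Nr1d2, Tns2, Fbxo21, Abcg8, Gnat1, Tef, Cpt1a and Slc38a3 among those higher at CT06, and Arntl, Chka, Lonrf3, Cry1, Ppp1r3b, Tubb2a, Ppard, Slc34a2, Clpx, Zbtb21 and Loxl4 among those lower. Of these, Slc38a3, Slc34a2 and Zbtb21 are named after their values were seen, to complete the list.

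**Figure D1:**
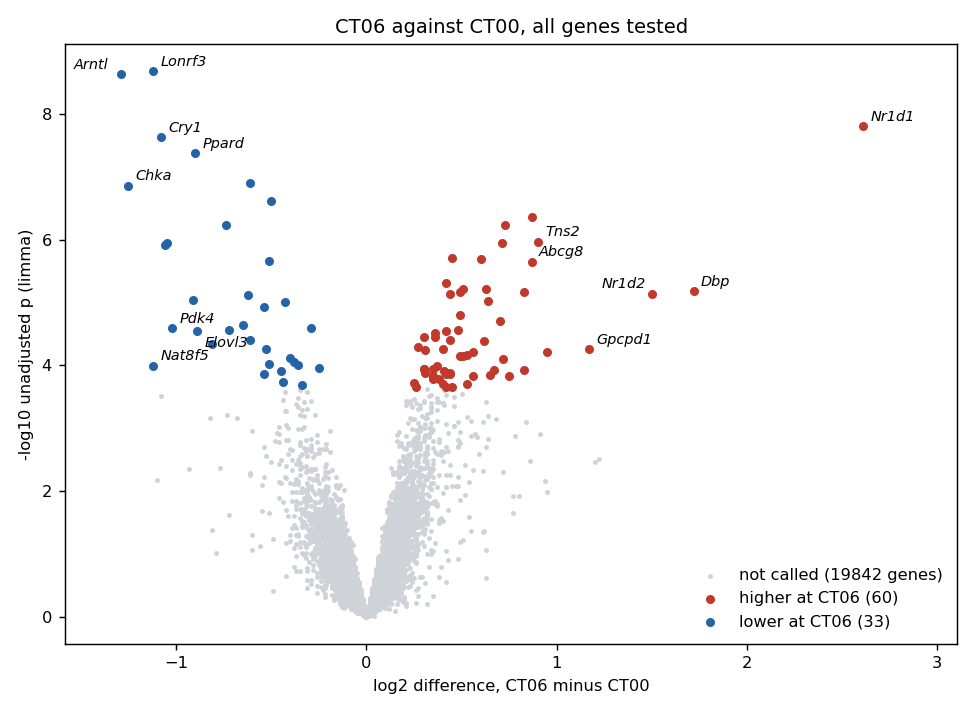
Log2 difference CT06 minus CT00 (x axis) against -log10 of the unadjusted p of limma's test (y axis) for the 19935 genes, with the 93 genes called at an adjusted p under 0.05 coloured by direction. Nr1d1 stands farthest to the right at 2.61, and Arntl farthest to the left at -1.29.

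The REV-ERB repressors rose and their target Arntl fell. Nr1d1, which encodes the heme-binding repressor REV-ERB alpha, had the largest change of any gene. Nr1d1 read -1.71, -0.78 and -0.17 at CT00 and 1.72, 1.57 and 1.88 at CT06, a difference of 2.61 ± 0.29 (SE), 6.11-fold higher at CT06, adjusted p = 0.000104. All CT06 arrays were high and close together, while the CT00 arrays spread over more than 1.5 log2 units, replicate 1 lowest and replicate 3 highest. Nr1d2, which encodes REV-ERB beta, read -1.77, -0.82 and -0.21 at CT00 and 0.50, 0.43 and 0.76 at CT06, a difference of 1.5 ± 0.25 (SE), 2.82-fold higher at CT06, adjusted p = 0.00546. The order of its CT00 arrays was that of Nr1d1, with replicate 1 again lowest. With the spread estimated from the 6 arrays alone, the adjusted p of Nr1d2 was 0.147.

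Arntl, the E-box activator, ran the opposite way with little scatter. It read 0.82, 0.76 and 0.70 at CT00 and -0.45, -0.47 and -0.66 at CT06, a difference of -1.29 ± 0.13 (SE), 2.45-fold lower at CT06, adjusted p = 2.34e-05. Both groups were tight, with a wide gap between them. Cry1, a repressor whose gene carries both E-boxes and ROR elements, read 0.48, 0.47 and 0.31 at CT00 and -0.69, -0.45 and -0.84 at CT06, -1.08 ± 0.12 (SE), 2.11-fold lower at CT06, adjusted p = 0.000119, and the groups stood well apart. Nfil3, the D-box repressor, read 0.57, 0.46 and 0.27 at CT00 and -0.31, -0.41 and -0.72 at CT06, -0.91 ± 0.16 (SE), 1.88-fold lower at CT06, adjusted p = 0.00628, with every CT06 array below every CT00 array. Clock, the partner of BMAL1, read 0.36, 0.33 and 0.29 at CT00 and -0.01, 0.01 and 0.05 at CT06 and its difference of -0.31 ± 0.07 (SE) had an adjusted p of 0.0546, or 0.0487 with the replicate block in all arrays. Nfil3 lost the call without CT00 replicate 1 (adjusted p = 0.068) or CT06 replicate 3 (0.0679).

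The Period genes and the other E-box repressors were not called as a group. Per2 read -0.42, -0.42 and -0.58 at CT00 and -0.52, -0.24 and -0.65 at CT06, so the mean difference was -0.00 ± 0.13 (SE). Per1 differed by 0.44 ± 0.13 (SE), adjusted p = 0.228. The replicate block of the 6 arrays, added after seeing the data, was the only setting that called it (adjusted p = 0.0155). Per3 read -1.03, -0.67 and -0.37 at CT00 and -0.04, -0.17 and 0.04 at CT06, a difference of 0.63 ± 0.15 (SE) with an adjusted p of 0.0661, and no CT00 array reached a CT06 array. It passed with the block in all arrays (adjusted p = 0.035) and without CT00 replicate 3 (0.0195). Cry2 differed by 0.40 (adjusted p = 0.0661). Ciart, the repressor also called Chrono, read -1.28, -0.23 and 0.09 at CT00 and 0.06, -0.08 and 0.23 at CT06, so replicate 1 lay far below the others at CT00 and the groups overlapped, with an adjusted p of 0.564. Bhlhe41, which encodes the E-box competitor DEC2, rose by 0.83 ± 0.14 (SE), 1.77-fold higher at CT06, adjusted p = 0.00546, whereas its relative Bhlhe40 (DEC1) differed by 0.18 (adjusted p = 1). Bhlhe41 lost the call without CT00 replicate 1 (adjusted p = 0.0671) or CT06 replicate 3 (0.0556).

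Among the PAR bZIP activators, Dbp and Tef rose and Hlf was not called. Dbp read -1.94, -0.64 and -0.04 at CT00 and 0.77, 0.72 and 1.04 at CT06, a difference of 1.72 ± 0.29 (SE), 3.29-fold higher at CT06, adjusted p = 0.00546. CT00 replicate 3 was the highest of its group and still lay below all CT06 arrays. With the 6 arrays alone its adjusted p was 0.168. Tef read -0.87, -0.77 and -0.42 at CT00 and -0.01, 0.01 and 0.07 at CT06, 0.71 ± 0.10 (SE), 1.63-fold higher at CT06, adjusted p = 0.00161, and no CT00 array reached a CT06 array. Hlf differed by 0.24 (adjusted p = 0.345), and its groups did not overlap.

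The gene lists counted here and below were chosen with earlier results of these data known, and 0.467% of all genes were called. By list, 3 of 10 measured genes of the negative limb were called higher (Nr1d1, Nr1d2, Bhlhe41) and 1 lower (Cry1), with a median difference of 0.49 beside 0.00948 for all genes. Of the 3 PAR bZIP genes 2 were called higher, and of 7 genes of the positive limb and ROR-element group 2 were called lower (Arntl, Nfil3) and none higher, with medians of 0.71 and -0.31. The members of that last group that did not pass, besides Clock, were Rora at -0.10 (adjusted p = 1), Rorb at 0.02 (adjusted p = 1), Arntl2 at 0.03 (adjusted p = 1) and E2f8, a transcription factor of the cell cycle, at -0.38 (adjusted p = 0.911). None of 12 kinases, ligases and other modifiers of clock proteins was called by limma (2 had an unadjusted p under 0.05), and their median was 0.05.

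**Figure D2:**
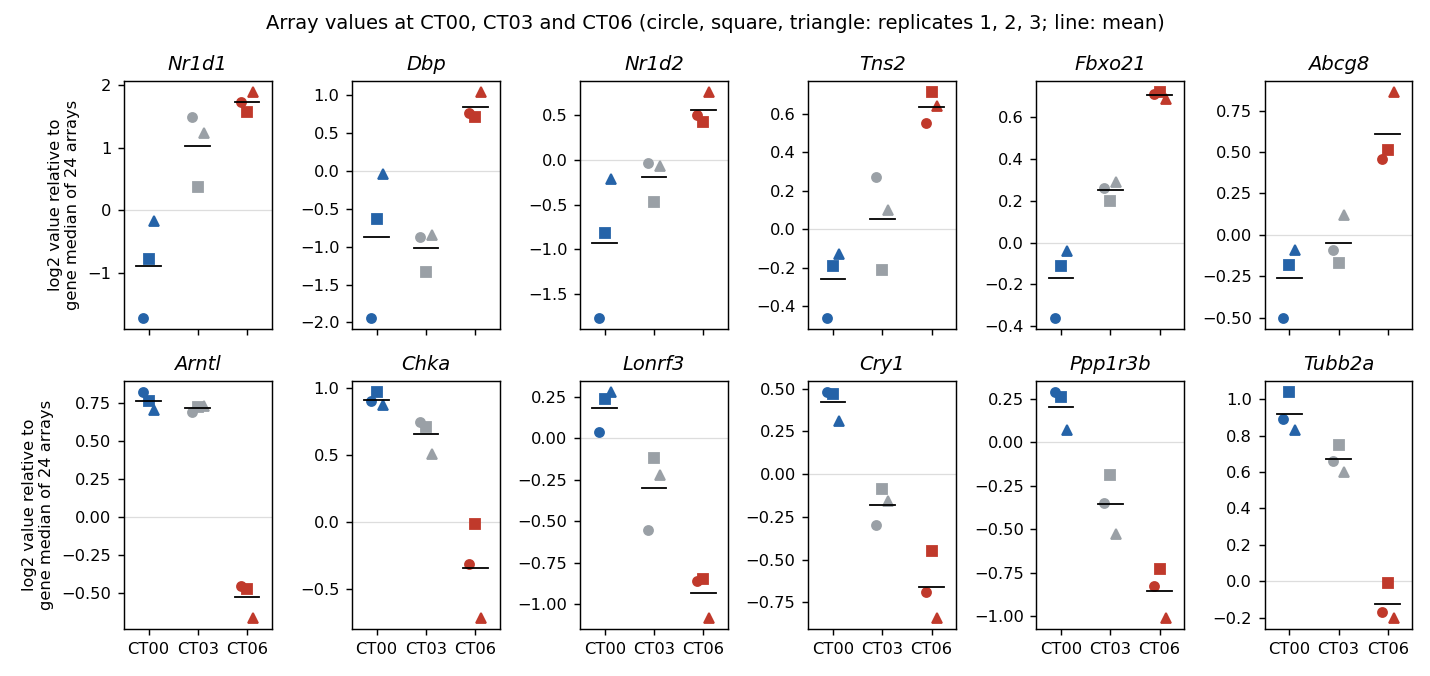
Centred log2 values (y axis) of single arrays at CT00, CT03 and CT06 (x axis) for the 6 largest rises and the 6 largest falls among the 21 genes called whichever array was left out, with a line at the mean of 3 arrays. Nr1d1, Dbp and Nr1d2 are spread at CT00 and tight at CT06, and Arntl is tight at both, from 0.70 to 0.82 and from -0.66 to -0.45.

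The sequences upstream of the 3 largest rises and the 3 largest falls show which of the known clock motifs lie close to the start of transcription. They are the 250 bases before the RefSeq start, from GRCm38.p6, written 5′ to 3′ along the gene, with any match in capitals to the E-box CACGTG, the D-box TTATGTAA, the core of the ROR element (A, A, any base, T, any base, then GGTCA), the nuclear receptor motif AGGTCA, the cAMP element TGACGTCA, the heat shock element GAANNTTC or CCAAT, on either strand. AGGTCA can lie inside a match to the ROR core.
Nr1d1, chr11:98775378-98775627, minus strand: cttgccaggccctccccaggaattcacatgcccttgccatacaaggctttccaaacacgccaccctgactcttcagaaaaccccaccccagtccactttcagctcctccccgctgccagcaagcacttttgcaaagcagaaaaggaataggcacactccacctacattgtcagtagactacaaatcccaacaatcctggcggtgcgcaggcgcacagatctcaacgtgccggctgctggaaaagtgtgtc
Dbp, chr7:45704997-45705246, plus strand: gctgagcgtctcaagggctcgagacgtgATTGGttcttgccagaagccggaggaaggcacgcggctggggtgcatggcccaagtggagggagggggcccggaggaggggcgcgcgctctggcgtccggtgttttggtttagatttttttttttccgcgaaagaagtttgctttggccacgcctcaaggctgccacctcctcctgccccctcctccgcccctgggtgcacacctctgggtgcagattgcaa
Nr1d2, chr14:18239107-18239356, minus strand: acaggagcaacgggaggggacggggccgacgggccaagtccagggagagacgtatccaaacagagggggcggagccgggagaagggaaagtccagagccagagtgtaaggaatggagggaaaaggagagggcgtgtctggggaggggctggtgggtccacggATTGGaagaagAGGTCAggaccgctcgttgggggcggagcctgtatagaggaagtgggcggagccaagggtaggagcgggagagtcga
Arntl, chr7:113207215-113207464, plus strand: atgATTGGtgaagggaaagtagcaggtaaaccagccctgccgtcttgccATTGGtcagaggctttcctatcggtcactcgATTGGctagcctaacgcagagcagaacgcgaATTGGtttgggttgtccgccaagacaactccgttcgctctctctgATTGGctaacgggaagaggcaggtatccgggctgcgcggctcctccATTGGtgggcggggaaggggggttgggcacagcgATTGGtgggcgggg
Chka, chr19:3851523-3851772, plus strand: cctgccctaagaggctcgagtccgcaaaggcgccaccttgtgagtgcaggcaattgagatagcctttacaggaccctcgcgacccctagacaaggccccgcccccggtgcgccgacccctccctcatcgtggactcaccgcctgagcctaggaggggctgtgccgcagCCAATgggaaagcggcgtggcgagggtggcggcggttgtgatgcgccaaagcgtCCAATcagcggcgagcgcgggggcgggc
Nat8f5, chr6:85820973-85821222, minus strand: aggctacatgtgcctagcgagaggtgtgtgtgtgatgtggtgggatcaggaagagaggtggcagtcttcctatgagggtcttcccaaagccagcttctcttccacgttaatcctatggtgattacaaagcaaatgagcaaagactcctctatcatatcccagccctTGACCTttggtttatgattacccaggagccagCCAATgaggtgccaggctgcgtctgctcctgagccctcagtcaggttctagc
The capitals in these 6 sequences are CCAAT on one strand or the other, and AGGTCA in Nr1d2 and Nat8f5. Arntl held 7 CCAAT matches in its 250 bases.

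Matches to the ROR core and to the E-box are given with their flanks for every called clock gene and every called gene among the 12 largest rises and the 12 largest falls that holds one. This view was chosen after the values were seen, because both motifs belong to the loop.
Arntl, chr7:113207528-113207557, plus strand: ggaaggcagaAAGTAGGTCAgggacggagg
Bhlhe41, chr6:145865558-145865583, minus strand: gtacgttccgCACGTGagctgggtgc
Tef, chr15:81802536-81802561, plus strand: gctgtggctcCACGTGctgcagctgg
Tef, chr15:81811266-81811291, plus strand: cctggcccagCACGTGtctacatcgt
Cry1, chr10:85185099-85185124, minus strand: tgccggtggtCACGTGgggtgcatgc
Lonrf3, chrX:36328354-36328379, plus strand: tggtaggagtCACGTGgttgcgtttt
Paxx, chr2:25461124-25461149, minus strand: cgccccgcccCACGTGctaaaccccg
The capitals mark the ROR core in Arntl, which begins at base 28 counted from the second of its RefSeq starts, and the E-box CACGTG in the others. In windows of 250 bases before to 50 after each start, the ROR core stood in 1 of 33 windows of genes that fell (3.03%), in none of 60 of genes that rose and in 0.495% of 19175 windows of all tested genes. The E-box stood in 18.3% of the windows of genes that rose, 21.2% of those that fell and 8.25% of all. AGGTCA stood in 13.3%, 18.2% and 14.2%, the D-box in 0, 0 and 0.84%, and the cAMP element in 3.33%, 6.06% and 2.37%. The heat shock element stood in 5%, 15.2% and 6.72%, and CCAAT in 38.3%, 60.6% and 37.4%. Windows were found for 45 of the genes that rose and 28 of those that fell, and these shares are descriptions of short letter strings.

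Outside the clock, the largest rises included a sterol transporter of bile, carriers of the mitochondrial membrane and a growth factor receptor. Abcg8, which with Abcg5 forms the transporter that secretes cholesterol into bile, read -0.50, -0.18 and -0.09 at CT00 and 0.46, 0.51 and 0.86 at CT06, 0.87 ± 0.13 (SE), 1.82-fold higher at CT06, adjusted p = 0.00236. The CT06 arrays were all high. Its partner Abcg5 read -0.59, -0.32 and -0.01 at CT00 and 0.28, 0.20 and 0.52 at CT06 and differed by 0.64 ± 0.16 (SE), adjusted p = 0.0887. Gpcpd1, which splits glycerophosphocholine, read -0.83, -0.46 and -0.10 at CT00 and 0.43, 0.39 and 1.31 at CT06, 1.17 ± 0.23 (SE), 2.25-fold higher at CT06, adjusted p = 0.0215. Slc25a47, a mitochondrial carrier found mainly in liver, read -0.73, -0.33 and -0.14 at CT00 and 0.65, 0.35 and 0.65 at CT06, 0.95 ± 0.19 (SE), 1.93-fold higher at CT06, adjusted p = 0.0224. In both of these genes the CT00 arrays lay below 0 and their spread was wide. Slc8b1, a sodium and calcium exchanger of mitochondria, rose by 0.83 ± 0.18 (SE), 1.78-fold higher at CT06, adjusted p = 0.034.

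Tns2, a tensin of focal adhesions, read -0.46, -0.19 and -0.13 at CT00 and 0.55, 0.71 and 0.64 at CT06, 0.90 ± 0.13 (SE), 1.86-fold higher at CT06, adjusted p = 0.00161. Fbxo21, an F-box subunit of ubiquitin ligases, read -0.36, -0.11 and -0.04 at CT00 and 0.71, 0.72 and 0.69 at CT06, 0.87 ± 0.12 (SE), 1.83-fold higher at CT06, adjusted p = 0.000984. Both kept their groups clearly apart. Gnat1, the alpha subunit of rod transducin in the retina, read -0.15, -0.27 and -0.02 at CT00 and 0.43, 0.56 and 0.77 at CT06, 0.73 ± 0.10 (SE), 1.66-fold higher at CT06, adjusted p = 0.00107. Erbb3, a receptor of the EGF receptor family, rose by 0.75 ± 0.16 (SE), 1.68-fold higher at CT06, adjusted p = 0.0358, and its highest mean of the 8 times was at CT03. Gpcpd1 (adjusted p = 0.193), Slc25a47 (0.205), Slc8b1 (0.262) and Erbb3 (0.28) lost the call without CT00 replicate 1. Gpcpd1 (0.0947), Slc25a47 (0.0858), Slc8b1 (0.0973) and Erbb3 (0.107) did so without CT00 replicate 2. Slc8b1 (0.0508) and Erbb3 (0.0525) did so without CT00 replicate 3. Slc25a47 (0.0739), Slc8b1 (0.0693) and Erbb3 (0.0724) did so without CT06 replicate 1. Slc8b1 (0.167) and Erbb3 (0.118) did so without CT06 replicate 2. Gpcpd1 (0.155), Slc25a47 (0.129), Slc8b1 (0.111) and Erbb3 (0.188) did so without CT06 replicate 3. Abcg8 and Slc25a47 had adjusted p values of 0.0514 and 0.0516 with the 6 arrays alone, and Gpcpd1 0.154. Slc8b1 and Erbb3 had 0.0698 and 0.0687 with the small nucleolar RNA covariate. Abcg5 was called with the replicate block of the 6 arrays (0.0164) and without CT00 replicate 3 (0.0384).

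The largest falls outside the clock included enzymes of phospholipid, glycogen and fatty acid metabolism. Chka, the choline kinase that starts phosphatidylcholine synthesis, read 0.90, 0.97 and 0.87 at CT00 and -0.31, -0.01 and -0.71 at CT06, -1.25 ± 0.16 (SE), 2.39-fold lower at CT06, adjusted p = 0.000398. The CT00 arrays were nearly equal and the CT06 arrays spread, replicate 2 highest. Ppp1r3b, the hepatic subunit that brings protein phosphatase to glycogen, read 0.29, 0.26 and 0.07 at CT00 and -0.83, -0.73 and -1.01 at CT06, -1.06 ± 0.16 (SE), 2.09-fold lower at CT06, adjusted p = 0.00161. Pdk4, the kinase that shuts pyruvate dehydrogenase, read 1.19, 0.90 and 0.67 at CT00 and 0.07, -0.06 and -0.31 at CT06, -1.02 ± 0.19 (SE), 2.03-fold lower at CT06, adjusted p = 0.014. Its CT06 arrays were all below its CT00 arrays. Elovl3, which lengthens long fatty acids, read 1.30, 1.21 and 0.96 at CT00 and 0.10, 0.66 and 0.04 at CT06, -0.89 ± 0.17 (SE), 1.85-fold lower at CT06, adjusted p = 0.014, with CT06 replicate 2 nearest to CT00. Ppard, the nuclear receptor PPAR delta, read 0.87, 0.70 and 0.49 at CT00 and -0.19, -0.15 and -0.29 at CT06, -0.90 ± 0.11 (SE), 1.86-fold lower at CT06, adjusted p = 0.000169. Pdk4 lost the call without CT00 replicate 1 (adjusted p = 0.134), CT00 replicate 2 (0.0654) or CT06 replicate 3 (0.111). Elovl3 lost the call without CT00 replicate 1 (adjusted p = 0.13), CT00 replicate 2 (0.0873), CT06 replicate 1 (0.0652) or CT06 replicate 3 (0.121). Elovl3 had an adjusted p of 0.0896 with the 6 arrays alone.

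Lonrf3, a RING finger protein, read 0.04, 0.24 and 0.28 at CT00 and -0.86, -0.85 and -1.08 at CT06, -1.12 ± 0.11 (SE), 2.17-fold lower at CT06, adjusted p = 2.34e-05, and shared with Arntl the smallest adjusted p of all genes. Tubb2a, a beta tubulin, read 0.89, 1.04 and 0.83 at CT00 and -0.17, -0.01 and -0.20 at CT06, -1.05 ± 0.15 (SE), 2.07-fold lower at CT06, adjusted p = 0.00161. The groups of both stood apart. Nat8f5, of the N-acetyltransferase family, read 0.48, 0.13 and 0.01 at CT00 and -1.13, -0.58 and -1.02 at CT06, -1.12 ± 0.23 (SE), 2.17-fold lower at CT06, adjusted p = 0.0316, and Paxx, a factor of DNA end joining, fell by 0.81 ± 0.16 (SE), 1.75-fold lower at CT06, adjusted p = 0.0188. Nat8f5 lost the call without CT00 replicate 1 (adjusted p = 0.238), CT00 replicate 2 (0.0973), CT06 replicate 1 (0.125) or CT06 replicate 3 (0.158). Paxx lost the call without CT00 replicate 1 (adjusted p = 0.13), CT00 replicate 2 (0.0973), CT06 replicate 2 (0.0679) or CT06 replicate 3 (0.121). Nat8f5 had an adjusted p of 0.0593 with the small nucleolar RNA covariate.

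In fatty acid oxidation and ketone synthesis, 3 of 22 measured genes were called higher and 1 lower, with a median of 0.13. Cpt1a, the rate-limiting carnitine transferase for import of fatty acids into mitochondria, read -0.43, -0.13 and -0.09 at CT00 and 0.26, 0.39 and 0.49 at CT06, 0.60 ± 0.09 (SE), 1.51-fold higher at CT06, adjusted p = 0.00236. Pnpla2, the adipose triglyceride lipase, read -0.31, -0.15 and -0.12 at CT00 and 0.27, 0.31 and 0.29 at CT06, 0.49 ± 0.08 (SE), 1.4-fold higher at CT06, adjusted p = 0.00546. Both were higher on every CT06 array. Ppara, the receptor that controls this pathway and a gene named after its value was seen, rose by 0.49 ± 0.10 (SE) (adjusted p = 0.0249), and Pdk4, usually counted among its targets, fell as described. Cpt1a and Ppara missed the threshold with the 6 arrays alone (adjusted p = 0.0721 and 0.172), and Ppara also with the small nucleolar RNA covariate (0.0565). Pnpla2 lost the call without CT00 replicate 1 (adjusted p = 0.0675). Ppara lost the call without CT00 replicate 1 (adjusted p = 0.221), CT00 replicate 2 (0.0947), CT06 replicate 2 (0.0879) or CT06 replicate 3 (0.188).

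Fatty acid and triglyceride synthesis had 1 of 25 genes called, Elovl3, and its median was 0.10. The elongases Elovl5 and Elovl2 differed by 0.40 (adjusted p = 0.0661) and 0.31 (adjusted p = 0.0925), opposite in sign to Elovl3. Both were called with the replicate block of the 6 arrays (adjusted p = 0.019 and 0.0471). None of 22 genes of cholesterol synthesis and uptake was called by limma (3 had an unadjusted p under 0.05), and their median was -0.02. Scap, the escort protein of the SREBP factors, differed by 0.32 (adjusted p = 0.156), or an adjusted p of 0.0422 with the block in all arrays. Pmvk, phosphomevalonate kinase, differed by -0.33 (adjusted p = 0.437) and Tm7sf2, a sterol reductase, by 0.21 (adjusted p = 0.676). Abcg8 was the single gene called among 21 of bile acid synthesis and transport (median 0.08), where the phospholipid exporter Abcb4 differed by 0.32 (adjusted p = 0.158).

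Of the genes of glucose, 1 of 13 in glycolysis and glycogen metabolism was called (Ppp1r3b). Ppp1r3c, a second glycogen-targeting subunit, read 1.00, 0.91 and 0.92 at CT00 and 0.25, -0.51 and -0.15 at CT06. Its difference of -1.08 ± 0.25 (SE) matched that of Ppp1r3b in size, with more scatter and an adjusted p of 0.0609, or 0.0105 with the replicate block of the 6 arrays and 0.038 without CT06 replicate 1. Slc2a2, the hepatic glucose transporter GLUT2, differed by 0.30 (adjusted p = 0.242). In gluconeogenesis and amino acid breakdown, Oat was the 1 gene of 19 that was called. Of the 19, 16 had positive differences, and the median was 0.12. Oat, ornithine aminotransferase, read -0.28, -0.27 and -0.32 at CT00 and -0.03, 0.47 and 0.62 at CT06, 0.65 ± 0.14 (SE), 1.57-fold higher at CT06, adjusted p = 0.0357. Pck1, the PEPCK enzyme of gluconeogenesis, had the largest difference of the list, 1.20 ± 0.36 (SE), and did not pass (adjusted p = 0.213). It was named after its value was seen. Fbp1, fructose bisphosphatase, differed by 0.16 (adjusted p = 0.13). Got1, cytosolic aspartate aminotransferase, differed by 0.78 (adjusted p = 0.131), or an adjusted p of 0.00404 with the block of the 6 arrays. Oat lost the call without CT00 replicate 1 (adjusted p = 0.17), CT00 replicate 2 (0.125), CT00 replicate 3 (0.11), CT06 replicate 2 (0.184) or CT06 replicate 3 (0.27). Oat also missed the threshold with that block (0.0629), with the 6 arrays unblocked (0.156) and with the small nucleolar RNA covariate (0.0731).

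Among 15 genes of insulin signalling and FOXO targets 2 were lower, Ppp1r3b and Grb10, and the median was 0.02. Grb10, an adaptor that restrains the insulin receptor, read 0.11, 0.09 and 0.20 at CT00 and -0.23, -0.33 and -0.12 at CT06, -0.36 ± 0.07 (SE), 1.28-fold lower at CT06, adjusted p = 0.0316. Its groups did not overlap. Trib3, a pseudokinase that inhibits AKT, differed by 0.46 (adjusted p = 0.0623), or an adjusted p of 0.0399 with the replicate block in all arrays. Of 13 glucocorticoid-responsive genes Pdk4 alone was called, and Tsc22d3 (GILZ), a standard target of the glucocorticoid receptor, differed by -0.40 (adjusted p = 0.162), or 0.0164 with the block of the 6 arrays. Grb10 lost the call without CT00 replicate 1 (adjusted p = 0.13), CT00 replicate 2 (0.0909), CT00 replicate 3 (0.121), CT06 replicate 1 (0.0729) or CT06 replicate 2 (0.183). The adjusted p of Grb10 was 0.0864 with the 6 arrays alone and 0.0628 with the small nucleolar RNA covariate.

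Chaperone genes were mostly on the lower side at CT06, and 1 of them passed. Of 17 cytosolic and mitochondrial heat shock chaperones 16 had negative differences, beside 8932 of all 19935 genes, with a median of -0.22. All CT06 arrays lay below all CT00 arrays in 9 of the 17, a pattern seen in 5.91% of all genes. Hsph1, the nucleotide exchange factor HSP110, was the 1 called. It read 0.14, -0.11 and -0.01 at CT00 and -0.61, -0.75 and -0.78 at CT06, -0.72 ± 0.13 (SE), 1.65-fold lower at CT06, adjusted p = 0.014. Hspb1 (HSP25) differed by -0.68 (adjusted p = 0.091) and reached 0.0198 without CT00 replicate 3. Hsp90aa1, the inducible HSP90, differed by -0.41 (adjusted p = 0.18). Hsph1 lost the call without CT00 replicate 1 (adjusted p = 0.13), CT06 replicate 2 (0.0613) or CT06 replicate 3 (0.106).

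No gene of 24 in endoplasmic reticulum folding and the unfolded protein response was called, the smallest adjusted p by limma being 0.0623 for Trib3, which this list shares. Of these 24, 20 had negative differences and the median was -0.15, while 7 had an unadjusted p under 0.05. In 14 all CT06 arrays lay below all CT00 arrays, as in 5.91% of all genes. Over all 19935 genes 8932 had negative differences, and 7.33% had an unadjusted p under 0.05 by limma. Dnajb9, the ER co-chaperone ERdj4, read 0.32, 0.19 and 0.05 at CT00 and -0.16, -0.76 and -0.72 at CT06. It differed by -0.73 (adjusted p = 0.0874), or 0.0153 with the replicate block of the 6 arrays and 0.0248 without CT06 replicate 1. Atf4, the translation-controlled stress factor, differed by -0.31 (adjusted p = 0.186), or 0.0467 with that block. Of 23 ribosome biogenesis genes 20 were negative, with a median of -0.17, and none was called (5 had an unadjusted p under 0.05). Again 9 had all CT06 arrays below all CT00 arrays. Nolc1 and Nop58, both proteins of nucleolar RNA particles, differed by -0.47 (adjusted p = 0.124) and -0.61 (adjusted p = 0.265), and passed with the block of the 6 arrays (0.0406 and 0.0125). Nop16, another nucleolar protein, differed by -0.32 (adjusted p = 0.143) and had 0.0484 without CT00 replicate 3. The small nucleolar RNA genes had a median of -0.11, 42 of 52 negative. Ribosomal proteins had a median of -0.05, with none of 13 called and none at an unadjusted p under 0.05.

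Autophagy and lysosome genes were mostly on the higher side. Of 20 measured, 18 had positive differences, beside 11003 of all 19935 genes, with a median of 0.07, and 2 were called higher. All CT06 arrays lay above all CT00 arrays in 7 of the 20, as in 9.14% of all genes. That pattern was not particular to this list. It held for 9 of 19 genes of gluconeogenesis and amino acid breakdown and 9 of 25 of fatty acid and triglyceride synthesis. Gabarapl1, an ATG8 protein of the autophagosome membrane, read -0.21, -0.06 and 0.06 at CT00 and 0.47, 0.40 and 0.46 at CT06, 0.51 ± 0.10 (SE), 1.43-fold higher at CT06, adjusted p = 0.0247. Ulk1, the kinase that starts autophagy, read -0.38, -0.18 and -0.08 at CT00 and 0.23, 0.22 and 0.21 at CT06, 0.44 ± 0.09 (SE), 1.35-fold higher at CT06, adjusted p = 0.0353. Map1lc3b, the LC3 protein, differed by 0.32 (adjusted p = 0.24), or 0.0335 with the replicate block of the 6 arrays. Some genes outside the list were picked from the called rises after their values were seen, so they give no share of lysosomal genes. They were Flcn (folliculin, a regulator of lysosomal mTORC1 signalling) at 0.63 (adjusted p = 0.00546) and Npc1 (lysosomal cholesterol export) at 0.62 (adjusted p = 0.0173). Arsa (arylsulfatase A) stood at 0.53 (adjusted p = 0.0447) and Clcn7 (a lysosomal chloride and proton exchanger) at 0.35 (adjusted p = 0.036). Lysosomal proteins of the list itself, also named after their values were seen, were not called. Lamp1, Lamp2, Ctsd and Ctsb differed by 0.01, 0.03, 0.05 and 0.07, Ctsl by 0.17 and Atp6v1h by -0.01. Gabarapl1 (adjusted p = 0.208), Ulk1 (0.285), Flcn (0.0581), Npc1 (0.163), Arsa (0.289) and Clcn7 (0.159) lost the call without CT00 replicate 1. Gabarapl1 (0.0973), Ulk1 (0.107), Npc1 (0.0878), Arsa (0.0973) and Clcn7 (0.243) did so without CT00 replicate 2. Arsa (0.105) did so without CT00 replicate 3. Gabarapl1 (0.0724), Ulk1 (0.0957), Arsa (0.069) and Clcn7 (0.0889) did so without CT06 replicate 1. Gabarapl1 (0.064), Ulk1 (0.118), Arsa (0.246) and Clcn7 (0.0554) did so without CT06 replicate 2. Gabarapl1 (0.121), Ulk1 (0.141), Npc1 (0.145), Arsa (0.108) and Clcn7 (0.252) did so without CT06 replicate 3. With the 6 arrays alone the call was lost for Ulk1, Flcn and Arsa (adjusted p = 0.076 for each), Clcn7 (0.116) and Npc1 (0.166). With the small nucleolar RNA covariate it was lost for Ulk1 (0.0616), Clcn7 (0.0596) and Arsa (0.0561).

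In xenobiotic metabolism Gstt2, a glutathione transferase, was the 1 gene called of 21. It read -0.21, -0.14 and -0.36 at CT00 and 0.39, 0.29 and 0.60 at CT06, 0.67 ± 0.14 (SE), 1.59-fold higher at CT06, adjusted p = 0.0337. Cyp3a11, the main drug-oxidizing P450 of this subfamily, differed by -0.17 (adjusted p = 0.492). Gstt2 lost the call without CT00 replicate 1 (adjusted p = 0.144), CT00 replicate 2 (0.0907), CT00 replicate 3 (0.129), CT06 replicate 1 (0.071), CT06 replicate 2 (0.0555) or CT06 replicate 3 (0.233). Limma called none in the lists of NAD metabolism and sirtuins (4 of 15 genes had an unadjusted p under 0.05), immediate early genes (3 of 19), cold-inducible RNA-binding proteins (1 of 2), the growth hormone axis (1 of 16), acute phase and complement (3 of 19), heme and iron (0 of 16), cell cycle (1 of 20), respiratory chain (1 of 19), proteasome (0 of 20) and reference genes (2 of 9). Their medians lay between -0.05 and 0.29. The list medians of the respiratory chain and the proteasome were 0.00 and 0.03. Cirbp, the cold-inducible RNA-binding protein, differed by 0.42 (adjusted p = 0.157), or 0.0242 with the block of the 6 arrays, and Socs2, a growth hormone target, by -0.37 (adjusted p = 0.84), or 0.0267. Of the 9 reference genes 7 had negative differences, from -0.15 for Actb and -0.14 for Gusb to -0.01 for Hprt, and the highest was 0.08 for B2m. Over all pathway lists 445 distinct genes were measured, 13 called higher and 8 lower, with a median of 0.01. Over all 19935 genes 0.301% were called higher and 0.166% lower. The lists were chosen with earlier results of these data known, so the larger share among their members is no result about pathways. The 21 called members became 9 without CT00 replicate 1, 13 without CT00 replicate 2 and 11 without CT06 replicate 3.

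**Figure D3:**
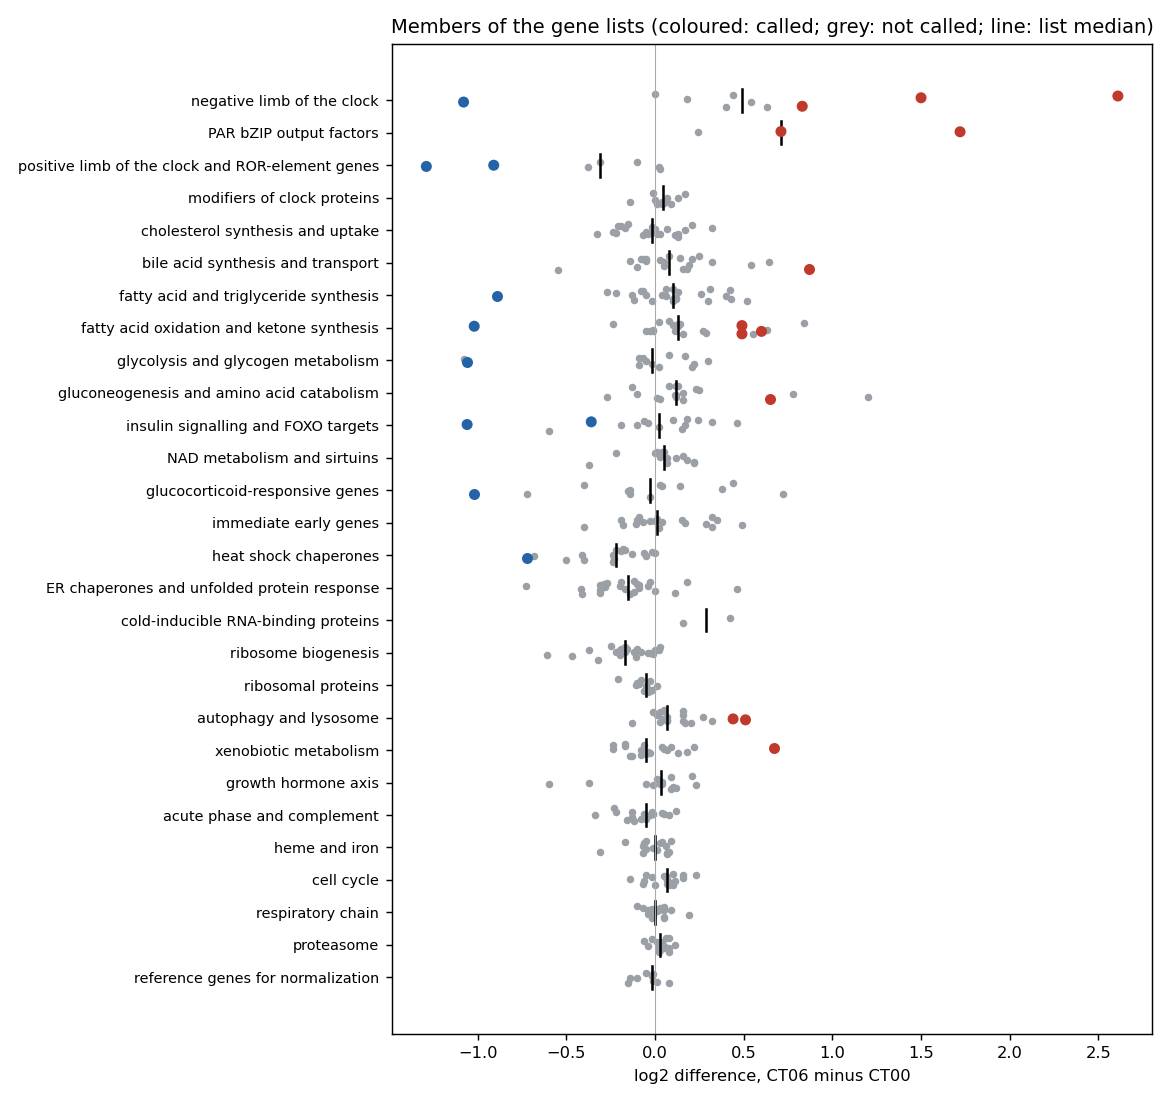
Log2 differences CT06 minus CT00 (x axis) of the members of each pathway list (rows), each point a gene, with called genes coloured and a bar at the list's median. The heat shock list lies to the left of 0 with a median of -0.22. The autophagy list has a median of 0.07, and the gluconeogenesis list one of 0.12.

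The 3 arrays at CT03, midway through the interval, split the changes into 2 steps. For Nr1d1 the earlier step was the one called, and for Arntl and Dbp the later one. A called and an uncalled step need not differ. The direct test of CT03 against the mean of CT00 and CT06, described below, called none of these 3 genes in the main fit. In that test Nr1d1 stood at 0.62 (limma, adjusted p = 0.92). Nr1d1 read 1.49, 0.38 and 1.23 at CT03, a step of 1.92 (adjusted p = 0.0335) from CT00 and of 0.69 (adjusted p = 0.894) onward to CT06. Arntl read 0.69, 0.72 and 0.73, with steps of -0.05 (adjusted p = 0.988) and -1.25 (adjusted p = 8.82e-05). Dbp read -0.87, -1.34 and -0.84, with steps of -0.14 (adjusted p = 0.977) and 1.86 (adjusted p = 0.00716). The CT03 arrays of Nr1d1 were thus spread and mostly high, those of Arntl level with CT00, and those of Dbp inside the range of CT00. Tef read -0.93, -0.64 and -0.73 at CT03, its lowest mean of the 8 times, and Nr1d2 -0.03, -0.47 and -0.07.

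These steps share the CT03 arrays with each other and the end arrays with the whole interval, so their counts are given side by side and not as independent results. Nr1d1 was the 1 gene of 19935 (0.00502%) called from CT00 to CT03, and 28 genes (0.14%), 8 higher (0.0401%) and 20 lower (0.1%), were called from CT03 to CT06. Of the 93 called genes 83 had their CT03 mean between the other means. The 93 were chosen by a difference between CT00 and CT06, so that count is partly set by the choice. In 65 the later step was the larger, 39 of the 60 that rose and 26 of the 33 that fell. Both counts are a description, and their shares over all genes were not computed. A direct test of whether CT03 lay off the mean of CT00 and CT06 called no gene in limma with equal weights, and 972 (4.88%) had an unadjusted p under 0.05. The smallest p values among called genes belonged to Arntl at 0.60 (adjusted p = 0.222), Slc39a10, a zinc importer, at 0.36 (adjusted p = 0.222), Tef at -0.44 (adjusted p = 0.222), Sphk2, a sphingosine kinase, at 0.36 (adjusted p = 0.222) and Dbp at -1.0 (adjusted p = 0.3). This test called 4 genes without CT00 replicate 1, 1 without CT06 replicate 2, 4 with only the arrays of those 3 times, and 21 with array weights.

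The same length of time 12 h later, from CT12 to CT18, was measured on other arrays, though in a fit with a shared spread. Most genes called from CT00 to CT06 ran the other way there. Of the 93, 86 had the opposite sign from CT12 to CT18, against 53% of all genes, and 54 of them were also called in that interval, where 833 genes (4.18%) were called. Nr1d1 read 0.22, 0.00 and 0.36 at CT12 and -1.98, -1.72 and -1.68 at CT18, a difference of -1.99 (adjusted p = 0.000358). Arntl read -1.60, -0.97 and -1.69 and then 0.17, 0.11 and 0.26, a difference of 1.60 (adjusted p = 5.82e-07). The arrays at each of these times stood well apart from those of the other, in both genes. Cry1 differed by 0.83 (adjusted p = 0.000387), Dbp by -2.07 (adjusted p = 0.000215) and Nr1d2 by -1.17 (adjusted p = 0.00896).

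The 6 h differences of day and night were compared directly in one contrast. By limma 795 genes (3.99%) had a different change in the 2 intervals, 513 more positive (2.57%) and 282 more negative (1.41%) in the day, and 87 of the 93 were among them. Because the 93 were chosen by the change from CT00 to CT06, which is 1 term of this contrast, that count is partly set by the choice. The same holds for the p values of the called genes given next, and both are given as a description. The 5 smallest p values among the called genes were those of Arntl, with a difference of the differences of -2.89 (adjusted p = 1.25e-08), Clpx at -1.50 (adjusted p = 1.14e-07), Nr1d1 at 4.60 (adjusted p = 1.9e-06), Cry1 at -1.90 (adjusted p = 2.2e-06) and Slc30a10 at -1.54 (adjusted p = 3.72e-06). Clpx is the ATPase of the mitochondrial ClpXP protease. It read 0.86, 0.76 and 0.76 at CT00 and 0.11, 0.19 and 0.24 at CT06 and fell by 0.61 in the day (adjusted p = 0.000398). Slc30a10, a manganese exporter, read 0.52, 0.50 and 0.40 at CT00 and -0.06, -0.12 and -0.26 at CT06 and fell by 0.62 (adjusted p = 0.00546). In neither gene did the groups overlap. Slc30a10 lost the call without CT00 replicate 1 (adjusted p = 0.0581) or CT06 replicate 3 (0.0556). The count of 795 became 474 without CT00 replicate 1 and 496 without CT06 replicate 3.

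A gene that follows a pure 24 h sine wave has opposite differences of equal size in the 2 intervals, and their sum is then 0. A 24 h rhythm of another shape, such as a narrow peak, can have a sum other than 0. The sum differed from 0 in 25 genes (0.125%) by limma, 17 positive (0.0853%) and 8 negative (0.0401%), and 2 of the 93 were among them. Cyb5r3, NADH-cytochrome b5 reductase, read -0.16, -0.05 and -0.10 at CT00 and 0.10, 0.31 and 0.09 at CT06, 0.27 ± 0.05 (SE), 1.2-fold higher at CT06, adjusted p = 0.0208, and rose again from CT12 to CT18 by 0.24 (adjusted p = 0.0102), with a sum of 0.51 (adjusted p = 0.00585). It was the 1 called gene that was called in the same direction at night. Lonrf3 fell in the day and differed by 0.31 (adjusted p = 0.132) at night, with a sum of -0.81 (adjusted p = 0.0406). The next in order were Gamt, the last enzyme of creatine synthesis, at 0.46 (adjusted p = 0.0544), Loxl4, a lysyl oxidase, at -0.44 (adjusted p = 0.0696), and Ppard at -0.69 (adjusted p = 0.0752). The other 6 genes with the same sign in both intervals were Erbb3, Gamt, Pdk2, Sphk2, Ces1d and Dancr, named after their values were seen.

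Cyb5r3 (adjusted p = 0.17), Gamt (0.108), Slc39a10 (0.173) and Sphk2 (0.355) lost the call without CT00 replicate 1. Gamt (0.106) and Sphk2 (0.172) did so without CT00 replicate 2. Cyb5r3 (0.0548), Gamt (0.151) and Slc39a10 (0.11) did so without CT00 replicate 3. Gamt (0.0528) did so without CT06 replicate 1. Cyb5r3 (0.115), Gamt (0.167), Slc39a10 (0.167) and Sphk2 (0.208) did so without CT06 replicate 2. Gamt (0.155), Slc39a10 (0.123) and Sphk2 (0.29) did so without CT06 replicate 3. The day difference of Cyb5r3 had an adjusted p of 0.212 with the 6 arrays alone and 0.0813 with their replicate block, and that of Gamt 0.0825 and 0.0607. Slc39a10 and Sphk2 had 0.136 and 0.156 with the 6 arrays alone, and Sphk2 0.0958 with the small nucleolar RNA covariate. The count of 25 genes with a nonzero sum fell to 5 without CT12 replicate 3, to 6 without any of CT00 replicate 2, CT00 replicate 3, CT06 replicate 2 and CT18 replicate 1, to 9 without CT12 replicate 1, to 14 without CT18 replicate 2 and to 16 without CT06 replicate 3.

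**Figure D4:**
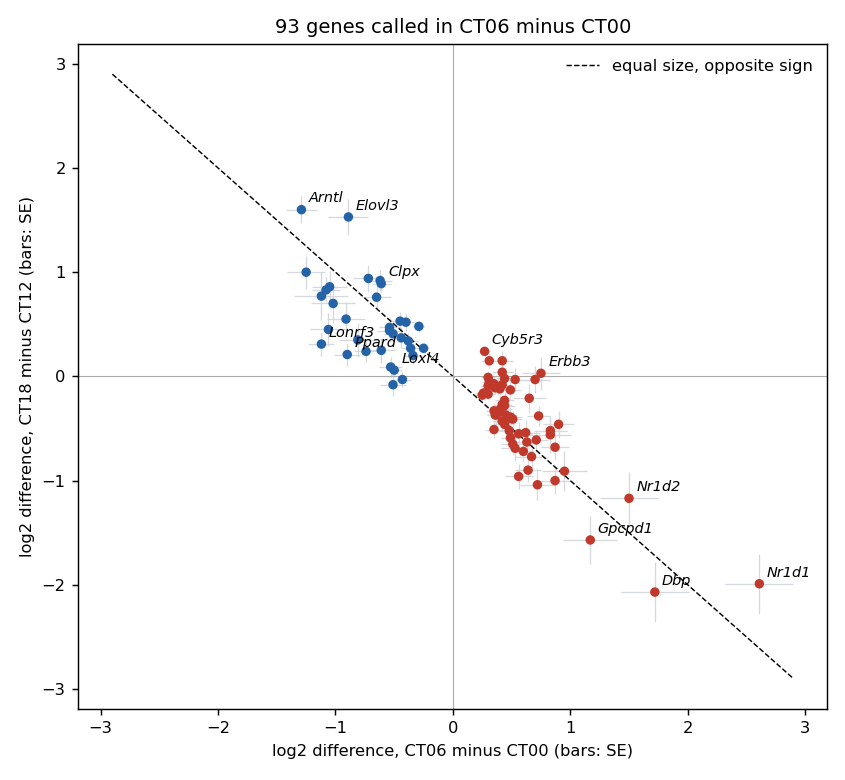
Log2 difference CT06 minus CT00 (x axis) against CT18 minus CT12 (y axis) for the 93 genes called in the first interval, with bars of 1 SE and a dashed line of equal size and opposite sign. Of those 93, 86 lie in the quadrants of opposite sign, with Nr1d1 and Arntl at the far ends.

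Seen over all 8 times, CT06 was the peak for many of the genes that rose, and CT00 for many of those that fell. Of the 60 higher genes 31 had their highest mean at CT06, 18 at CT09 and 7 at CT12, and their lowest mean was most often at CT18 (23), CT21 (16) or CT00 (13). Of the 33 lower genes 17 had their highest mean at CT00 and 6 at CT21, and their lowest mean was at CT09 in 17, CT12 in 9 and CT06 in 6. These times describe the order of means of 3 arrays and were not tested. The comparison chose genes by CT00 and CT06 themselves, so means at those times are not independent of it. Nr1d1 had means of 1.72 ± 0.16 (SD, n = 3) at CT06, 1.41 ± 0.07 at CT09 and -1.79 ± 0.16 at CT18. Dbp peaked at CT09 with 1.58 ± 0.13 and Nr1d2 at CT12 with 0.79 ± 0.24. Arntl was lowest at CT09 with -1.63 ± 0.14, and Cry1 highest at CT21 with 0.72 ± 0.16. Lonrf3 had its lowest mean at CT06, -0.93 ± 0.13, and its highest at CT15, 0.30 ± 0.12.

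**Figure D5:**
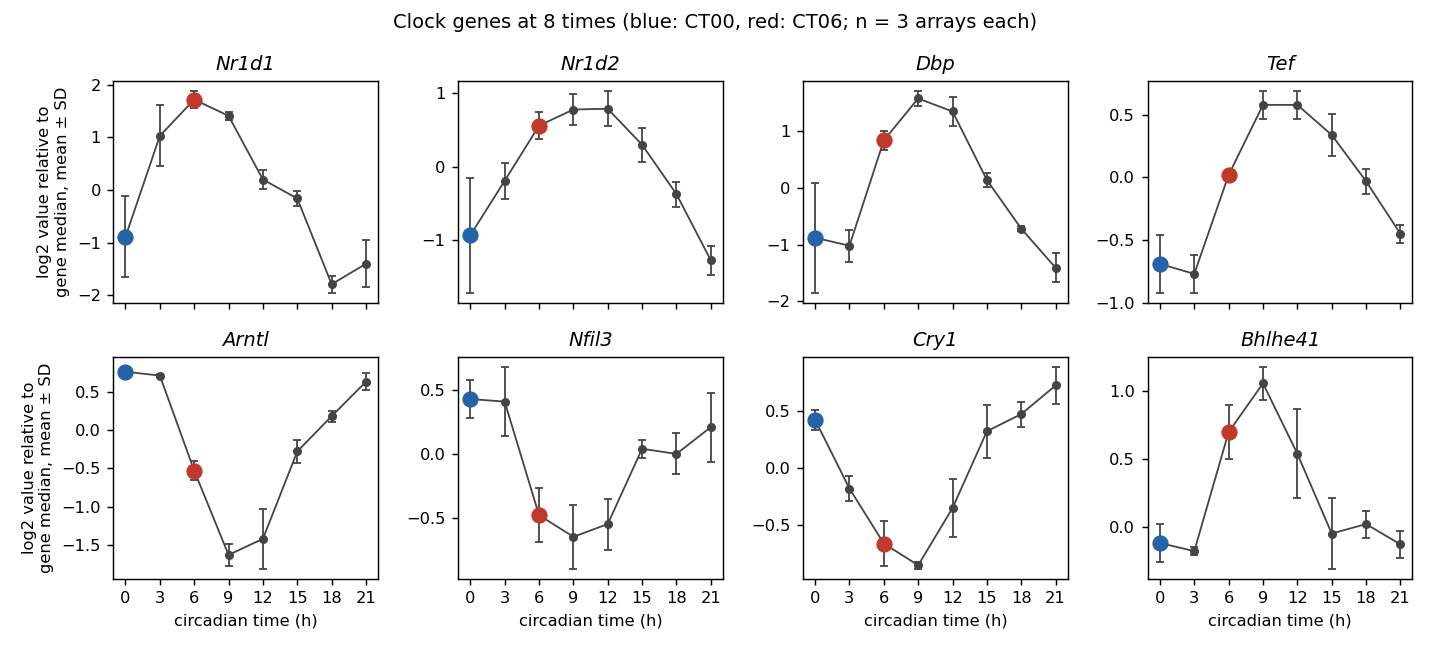
Centred log2 values (y axis) at the 8 circadian times in h (x axis) for 8 clock genes called from CT00 to CT06, with points at the mean of 3 arrays and bars of 1 SD. Nr1d1 is highest at CT06, Dbp at CT09 and Nr1d2 at CT12, while Arntl is highest at CT00 and lowest at CT09.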

How the data were processed

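RNA of individual mouse livers was hybridized to Affymetrix Mouse Gene 1.0 ST arrays, per the labels' protocols. The deposited series table holds centred values, taken here as log2, in which the median of each probe set is 0 within 5e-07. The background correction, normalization and log base (not given in the sources used here) are unknown, and base 2 was assumed for folds. All 24 columns of the table were matched to samples by their identifiers. Of 28815 probe sets 21780 had 1 symbol in the platform annotation, 1605 had several and 5430 were not listed. Probe sets of a symbol were averaged, which gave 19935 genes (998 with several probe sets). The precision is limited by the number of arrays.

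A model with 8 group means was fitted to all 24 arrays with limma 3.58.1 in R 4.3.3 (lmFit, eBayes), and p values were adjusted by Benjamini-Hochberg over all genes. The fitting script was first run on simulated data with known differences. Each gene list was described by counts and medians without a test. The members and lists were chosen with earlier results of these data known. Named genes are the 12 largest called differences each way, all clock list members, the 3 smallest p values of each other list, and the 5 called genes with the smallest p in each further contrast, besides common reference genes. Genes named outside this rule are marked as such in the text.

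Replicate numbers were checked for pairing. The deviations of same-numbered CT00 and CT06 arrays from their group means correlated at 0.155, 0.172 and 0.362, and those of other pairs at -0.235 to 0.103. Deviations from a group mean sum to 0, so high values of the first kind lower those of the second. The numbers were used as a block beside the main design on the ground of the first values, and the labels do not say what a number marks. Alternatives were the block, only the arrays of the times compared, array weights, no moderation, array medians set to 0, genes with 1 probe set, brighter probe sets, a small nucleolar RNA covariate, a 1.5-fold minimum and leaving out each array. The block with only 6 arrays was added after seeing the data. Brighter probe sets are those whose printed decimals place the uncentred value in the range from 8 to 16. Promoter windows came from RefSeq on GRCm38.p6, matched by symbol for 15612 genes.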

Additional observations from a re-analysis of the deposited data

Results flagged for a closer look

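The change from CT00 to CT06 differed from the change over the same length of time from CT12 to CT18 in 795 genes by limma's test of the difference (adjusted p under 0.05). The 5 genes with the smallest p for that difference among those called from CT00 to CT06 are given as a description. The change by which they were called is 1 term of the difference. It was 4.60 on the log2 scale for Nr1d1, which rose in the subjective day and fell in the subjective night. The difference was -2.89 for Arntl and -1.90 for Cry1, both of which fell in the day and rose in the night. For Clpx it was -1.50 and for Slc30a10 -1.54.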

How the results depend on the processing

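The 60 genes higher at CT06 became 36 with only the 6 arrays compared, 28 without moderation, 35 among brighter probe sets, 21 at a 1.5-fold minimum, 213 with array weights and 141 with the replicate block in the 6 arrays. The 33 lower genes became 18 without moderation, 16 among brighter probe sets, 18 at a 1.5-fold minimum, 101 with array weights and 107 with that block. Leaving out single arrays gave 10 to 58 higher and 11 to 30 lower genes, 9 to 22 called list members (21 with all arrays), 474 to 897 genes whose change differed between the 2 intervals (795), 5 to 29 with a nonzero sum (25) and 0 to 4 with CT03 off the mean (0). The replicate block in all arrays gave 43 genes with a nonzero sum, array weights 220, no moderation 9 and the small nucleolar RNA covariate 2. The 795 became 1391 with array weights, 391 among brighter probe sets and 428 at a 1.5-fold minimum. The count for CT03 was 4 with only its arrays and 21 with array weights.

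Of the 113 genes named by the rule, 17 lost their call without moderation, 14 with only 6 arrays and 7 with the covariate, and 22 gained one with array weights. With the replicate block in all arrays 4 gained a call and none lost it, and in the 6 arrays 16 gained and 3 lost it. Setting array medians to 0 changed no call of these genes. No called difference of these genes changed sign under these settings. The cause of these changes was not tested. Over all pairs of times, same-numbered arrays correlated at -0.399 to 0.498 (median 0.111). Other-numbered arrays did so at -0.461 to 0.503 (median -0.0623), a range that holds the same-number values of CT00 and CT06. Whether the numbers pair arrays is thus not known. The block was chosen from the deviations of these same arrays, so calls gained with it are an alternative and no support for a gene. In the other contrasts the block lacks even that basis (1025 genes in place of 795 for the difference between the intervals).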
